A study of Homo sapiens with 50 samples.

Results

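HepaRG cells exposed to isoxaflutole at 10 uM or 0.1 uM were set against control HepaRG cells. The 5 libraries at 10 uM and the 5 at 0.1 uM were pooled into 10 low-dose libraries, and the 5 control libraries carry an agent concentration of 0 in the labels, so 15 of the 50 libraries of the study were used. Libraries were chosen by their titles alone, and no measured value entered the choice. The study exposed HepaRG, a human hepatic line that differentiates into a mixed culture of hepatocyte-like and biliary-like cells, to pesticide active ingredients and sequenced total RNA in 10 groups of 5 libraries. In the test medium of the study, Williams'E medium with GlutaMAX held 2% fetal bovine serum and 1% DMSO, and it was given on days 8 to 14 with or without the compound. HepaRG is a single established line, and nothing in the labels tells whether replicates were grown as cultures of their own. The p-values therefore measure only the spread between these libraries, which may be technical. Isoxaflutole at 1 mM and mesotrione at 10 uM and 0.1 uM, 5 libraries each in the same medium, were used for comparison.

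Isoxaflutole is an isoxazole herbicide. In plants its diketonitrile metabolite blocks 4-hydroxyphenylpyruvate dioxygenase, the enzyme that in human liver is encoded by HPD and takes part in the degradation of tyrosine. Liver cells meet foreign compounds with ligand-activated transcription factors: PXR and CAR switch on CYP3A4, CYP2B6 and other drug-metabolizing genes, AHR switches on CYP1A1 and CYP1A2, and PPARalpha switches on genes of fatty acid oxidation. Mesotrione is a triketone herbicide with the same enzyme target in plants.

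Expression was read as FPKM, fragments scaled to transcript length and library size, summed over the transcripts that carry a gene's name. Depth, estimated from the steps between low FPKM values, was 9.77 M to 30.9 M fragments in the low-dose libraries and 11.7 M to 24.5 M in the control libraries. Summed FPKM ran from 545272 to 708816 over the 15 libraries, and the 3 lowest totals belonged to the first run of sample numbers, which holds 1 library of each group. Across genes, log2 values of a low-dose and a control library correlated at 0.934 to 0.957, beside 0.935 to 0.951 within 10 uM, 0.940 to 0.951 within 0.1 uM and 0.942 to 0.952 within control. The hepatic label was borne out by its markers: 21 of 22 hepatocyte markers passed the filter on low values, and ALB, the gene for serum albumin, stood at 8217 to 13300 FPKM over the 15 libraries. KRT19, a biliary keratin, was at 454 to 596 FPKM. EPCAM, a marker of biliary and progenitor cells, reached at most 0.0575 FPKM, and the leukocyte markers PTPRC and CD163 reached at most 0.0648 and 0.167 FPKM. In such bulk RNA, fewer cells of a type and less RNA per cell cannot be told apart.

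No gene passed the test in the pooled comparison. Of 13673 genes tested with limma, 0 (0.0%) had a Benjamini-Hochberg adjusted p under 0.05, and the lowest adjusted p was 0.476. At an unadjusted p under 0.05 there were 1049 genes (7.67%), of which 771 (5.64%) were higher in the low-dose libraries and 278 (2.03%) were lower. After median-ratio scaling of the libraries the split was 648 higher and 353 lower. Differences were small for most genes: the log2 difference of FPKM + 1 had its 5% and 95% points at -0.29 and 0.34 and its median at 0.01, and it was above 0 for 7302 genes (53.4%). The median standard error was 0.127. For 12685 genes (92.8%) the whole 95% interval lay between -1 and 1 on the log2 scale. A log2 difference of 1 in FPKM + 1 thus lay outside it for these genes, while smaller ones were not resolved. This scale understates changes of low genes, for which larger changes in FPKM itself can lie inside the interval. Beyond 1 in size lay 54 genes, and for 1 of these, MT-CO3, the interval excluded 1 as well.

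**Figure D1:**
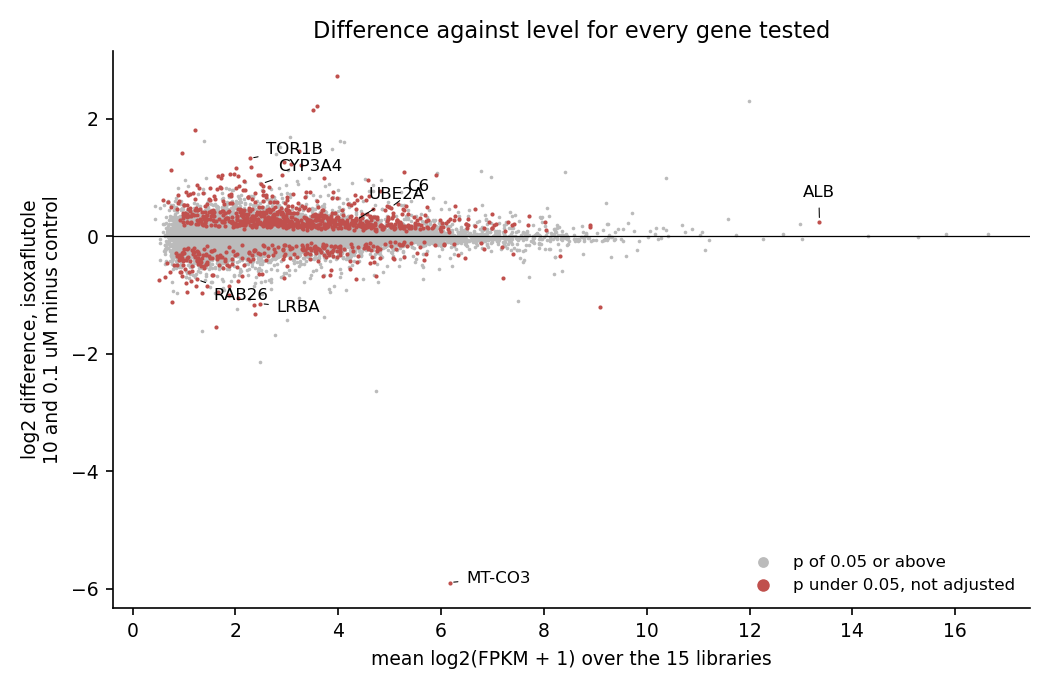
Log2 difference in FPKM + 1, isoxaflutole low doses (10 libraries) minus control (5 libraries), against the mean level over the 15 libraries, with 1 point per gene. Labelled points are genes named in the text. Most of the 13673 points lie between -0.29 and 0.34, and none passed the adjusted threshold.

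The genes nearest the threshold on the higher side belonged to varied functions. UBE2A, a ubiquitin-conjugating enzyme of DNA damage tolerance (chromosome X), had 22.4, 21.2, 19.9, 22.5 and 19.3 FPKM at 10 uM, 21.3, 20.9, 20.9, 18.7 and 19.1 FPKM at 0.1 uM, and 17.2, 17.0, 17.5, 15.7 and 16.9 FPKM in control. Every low-dose library was above every control library. The log2 difference was 0.27 (SE 0.0518, adjusted p = 0.476, limma). C6, a component of the membrane attack complex of complement, had 37.2, 39.1, 33.9, 37.3 and 30.4 FPKM at 10 uM, 35.2, 35.3, 28.6, 32.8 and 45.4 FPKM at 0.1 uM, and 23.6, 20.5, 24.9, 26.9 and 29.02 FPKM in control. A single library at 0.1 uM lay below the highest control library, and the log2 difference was 0.49 (SE 0.0970, adjusted p = 0.476). With the unnamed transcripts of the locus added, that difference for C6 was 0.19 and the groups overlapped widely.

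NRIP1, a corepressor of nuclear receptors, had 5.55, 7.11, 5.63, 4.75 and 5.36 FPKM at 10 uM, 5.02, 4.46, 5.72, 5.12 and 5.39 FPKM at 0.1 uM, and 3.22, 3.67, 4.45, 3.41 and 4.23 FPKM in control. The groups did not overlap, by a narrow gap at the lowest 0.1 uM library, and the log2 difference was 0.42 (SE 0.0908, adjusted p = 0.542). UGT2B7, an enzyme that attaches glucuronic acid to steroids and drugs, had 8.09 to 11.1 FPKM at 10 uM, 9.80 to 15.8 FPKM at 0.1 uM, and 3.87 to 8.97 FPKM in control. Its low-dose libraries were above control except for 1 library at 10 uM, with a log2 difference of 0.67 (SE 0.162, adjusted p = 0.542). RPL22, a protein of the large ribosomal subunit, had 48.4 to 54.2 FPKM at 10 uM, 47.4 to 51.1 FPKM at 0.1 uM, and 38.5 to 45.2 FPKM in control. HTATSF1, a splicing and transcription factor, had 14.0 to 16.3 FPKM at 10 uM, 14.3 to 15.9 FPKM at 0.1 uM, and 10.2 to 13.4 FPKM in control. Neither RPL22 (log2 difference 0.20) nor HTATSF1 (0.28) had an overlap between groups, and both had an adjusted p of 0.542. The other higher genes nearest the threshold were TOR1B, KBTBD2, CERS6, WASHC4, COL4A3BP and UBE2G1, with log2 differences between 0.33 and 1.33. CERS6 makes ceramide and COL4A3BP carries ceramide to the Golgi.

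On the lower side, TIMM10, a chaperone of mitochondrial protein import, had 10.5, 9.90, 9.96, 9.28 and 11.2 FPKM at 10 uM, 8.89, 10.3, 10.1, 10.8 and 10.7 FPKM at 0.1 uM, and 11.6, 12.7, 12.5, 11.5 and 12.8 FPKM in control. All 10 low-dose libraries lay below the 5 control libraries, and the log2 difference was -0.24 (SE 0.0572, adjusted p = 0.542). HSPB1, a small heat shock protein, had 262, 278, 213, 314 and 358 FPKM at 10 uM, 293, 298, 308, 314 and 333 FPKM at 0.1 uM, and 351, 350, 363, 458 and 349 FPKM in control. Only 1 library, at 10 uM, reached the control range, and the log2 difference was -0.34 (SE 0.103, adjusted p = 0.563). By the whole locus HSPB1 was at 212.7 to 446.6 FPKM in the low-dose libraries and 351.5 to 460.5 FPKM in control, and the difference was -0.14. PPP2R1A, the scaffold subunit of protein phosphatase 2A, had 46.1 to 55.2 FPKM at 10 uM, 43.6 to 48.2 FPKM at 0.1 uM, and 44.5 to 68.99 FPKM in control (log2 difference -0.30, adjusted p = 0.563). All 5 libraries at 10 uM lay inside its control range, as did 3 of those at 0.1 uM. The other lower genes nearest the threshold were U2AF1L5, MT-CO3, CAPN10, ATG4D, DNAJB2, C16orf45, LRBA, LSM14A and UBTD1.

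**Figure D2:**
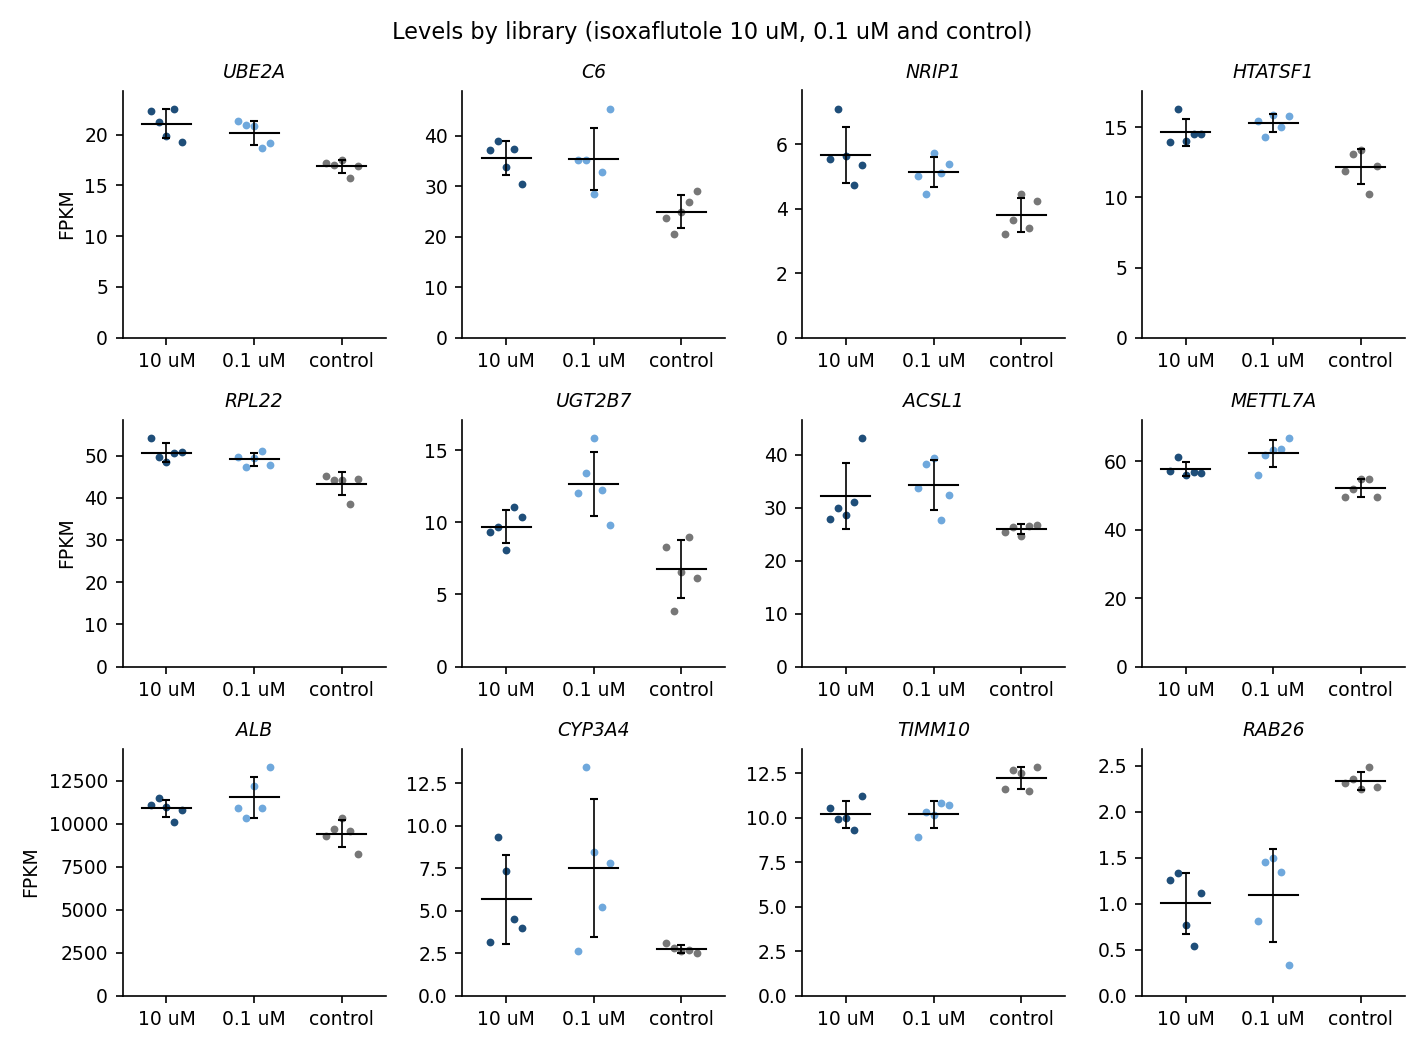
FPKM of genes named in the text in each library of isoxaflutole 10 uM, isoxaflutole 0.1 uM and control, with 1 point per library, a line at the group mean and a bar of 1 SD either side. By named transcripts, UBE2A and TIMM10 have no overlap between the 10 low-dose libraries and the 5 control libraries, whereas CYP3A4 is spread over 2.64 to 13.5 FPKM in the low-dose libraries.

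By named transcripts, complete separation of the 10 low-dose from the 5 control libraries was seen for 12 higher genes (0.0878% of those tested) and 4 lower genes (0.0293%). Genes separated only by whole loci, such as TOR1B, were not counted. The higher genes were UBE2A, NRIP1, HTATSF1, RPL22, METTL7A, ACSL1, ABHD2, ELK4, GCNT2, GFM1, GSPT2 and VKORC1L1. By whole loci, 6 of these 12 still did not overlap (NRIP1, METTL7A, ABHD2, GFM1, GSPT2 and VKORC1L1), and UBE2A, for example, was at 18.7 to 28.6 FPKM in the low-dose libraries and 15.7 to 24.1 FPKM in control. METTL7A, a methyltransferase-like protein found at lipid droplets and the endoplasmic reticulum, had 56.0 to 61.2 FPKM at 10 uM, 56.0 to 66.8 FPKM at 0.1 uM, and 49.6 to 54.9 FPKM in control (log2 difference 0.20, adjusted p = 0.542). ACSL1, which activates long-chain fatty acids, had 27.97 to 43.2 FPKM at 10 uM, 27.7 to 39.4 FPKM at 0.1 uM, and 24.6 to 26.8 FPKM in control (log2 difference 0.33, adjusted p = 0.563), but the groups overlapped by the whole locus, with a difference of 0.18. The lower genes were TIMM10, RAB26, DUSP28 and SPATA33, of which all but TIMM10 were also separated by whole loci. RAB26, a small GTPase of secretory vesicles (chromosome 16), had 1.25, 1.33, 0.770, 0.546 and 1.11 FPKM at 10 uM, 0.813, 1.45, 1.502, 1.35 and 0.336 FPKM at 0.1 uM, and 2.32, 2.36, 2.25, 2.49 and 2.27 FPKM in control. The control libraries were tightly grouped and the low-dose libraries were all below them, with a log2 difference of -0.73 (SE 0.142, adjusted p = 0.476). RAB26 was the one gene that passed when unnamed transcripts were added to the gene of their locus: its whole locus was at 1.28 to 1.77 FPKM in the low-dose libraries and 2.37 to 2.79 FPKM in control, with a log2 difference of -0.51 (adjusted p = 0.0205).

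CYP3A4 stood out among the targets of PXR and CAR. This main drug-metabolizing cytochrome P450 of liver had 3.15, 9.36, 7.35, 4.50 and 3.98 FPKM at 10 uM, 2.64, 13.5, 8.48, 5.24 and 7.79 FPKM at 0.1 uM, and 3.10, 2.80, 2.65, 2.70 and 2.53 FPKM in control. Of the 10 low-dose libraries, 9 were above every control library, and the lowest, at 0.1 uM, lay inside the control range. The mean was 6.60 ± 3.35 FPKM in the low-dose libraries and 2.76 ± 0.216 FPKM in control (SD, n = 10 and 5). The log2 difference was 0.89 (SE 0.272, 95% interval 0.32 to 1.47), with an adjusted p of 0.563, so it did not pass. Its highest value was at the lower concentration, and the concentrations were not separated: the 10 uM minus 0.1 uM difference was -0.30 (SE 0.315, adjusted p = 1.0).

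The promoter of CYP3A4 is shown because it holds the motif that PXR binds in this gene family, an everted repeat with a spacer of 6 bases, searched as TGAACTNNNNNNAGGTCA on both strands. The RefSeq windows run from 250 bases before to 50 bases after the gene start, in GRCh38.p14, on the minus strand at chr7:99784135-99784434 for CYP3A4 and chr7:99679947-99680246 for CYP3A5. Capitals mark the motif.
CYP3A4: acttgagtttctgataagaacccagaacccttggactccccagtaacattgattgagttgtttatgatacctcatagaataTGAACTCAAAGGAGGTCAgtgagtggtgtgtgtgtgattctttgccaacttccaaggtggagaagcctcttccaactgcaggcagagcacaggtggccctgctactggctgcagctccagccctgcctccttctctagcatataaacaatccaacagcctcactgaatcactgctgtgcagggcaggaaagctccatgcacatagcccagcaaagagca
CYP3A5: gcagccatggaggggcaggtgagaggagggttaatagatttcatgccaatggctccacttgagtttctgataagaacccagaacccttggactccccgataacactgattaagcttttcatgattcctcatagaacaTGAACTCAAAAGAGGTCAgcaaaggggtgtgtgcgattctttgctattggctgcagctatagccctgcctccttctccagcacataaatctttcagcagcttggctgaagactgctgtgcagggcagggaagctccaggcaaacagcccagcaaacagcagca
The motif began 169 bases before the start in CYP3A4 and 113 bases before it in CYP3A5. It was found in 3 of 35116 promoters (0.00854%), the third being that of ITGB1BP2, and CYP3A7 held AGGTCA, the second element of the repeat, without the first. Alone, AGGTCA was present in 13.8% of promoters. By named transcripts the CYP3A5 level overlapped between groups: it was 2.66 to 7.83 FPKM at 10 uM, 4.28 to 9.27 FPKM at 0.1 uM, and 4.77 to 10.1 FPKM in control (log2 difference -0.15, SE 0.233, adjusted p = 0.890, limma). By the whole locus CYP3A5 was higher and overlapped too, at 13.32 to 30.14 FPKM in the low-dose libraries and 16.58 to 29.79 FPKM in control. The whole-locus difference was 0.057. A motif in the window is a description of the sequence and was not read as binding.

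The other targets of PXR and CAR were closer to control. Of 19 listed genes 17 passed the filter, 3 were higher at an unadjusted p under 0.05, none was lower, and 10 lay above 0, where 5.64% of all genes were higher at that p. Their median log2 difference was 0.13, beside 0.01 over all genes. CYP2C8, a cytochrome P450 of drug and fatty acid metabolism, had 35.3, 38.4, 34.3, 33.1 and 27.4 FPKM at 10 uM, 41.6, 39.8, 40.7, 37.6 and 39.6 FPKM at 0.1 uM, and 26.7, 29.7, 31.9, 29.9 and 33.1 FPKM in control. The 0.1 uM libraries were all above control and those at 10 uM overlapped it, with a pooled log2 difference of 0.27 (SE 0.0860, adjusted p = 0.595). ABCC2, a pump that exports conjugates into bile, had 37.1 to 46.2 FPKM at 10 uM, 38.3 to 48.6 FPKM at 0.1 uM, and 18.3 to 45.1 FPKM in control. The difference for ABCC2 was 0.44 (adjusted p = 0.607), and it was 0.12 with the whole locus and 0.26 without control replicate 5. CYP2B6, the classical CAR target, had 1.94 to 4.37 FPKM at 10 uM, 1.18 to 4.18 FPKM at 0.1 uM, and 0.662 to 4.94 FPKM in control (log2 difference 0.17, SE 0.263, adjusted p = 0.887). CYP2C19 (0.55) was higher and UGT1A1 (-0.04) and POR (-0.33) were lower on average, all with adjusted p of 0.666 or above. Without 1 library CYP2C19 was at 0.31 (control replicate 5) and POR at -0.04 (replicate 1 at 10 uM).

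Targets of AHR stayed near control. Of 9 listed genes 8 passed the filter and 0 reached an unadjusted p under 0.05 (limma), with a median log2 difference of 0.06. CYP1A1 did not pass the filter, at 0 to 0.586 FPKM at 10 uM, 0 to 0.686 FPKM at 0.1 uM, and 0.431 to 0.711 FPKM in control. CYP1A2, which oxidizes caffeine and aromatic amines, had 0.360 to 1.45 FPKM at 10 uM, 0.372 to 1.84 FPKM at 0.1 uM, and 0.557 to 1.77 FPKM in control (log2 difference -0.03, adjusted p = 0.976). CYP1B1, a related enzyme that oxidizes estrogens, had 7.14 to 9.67 FPKM at 10 uM, 6.54 to 8.98 FPKM at 0.1 uM, and 6.94 to 8.64 FPKM in control, and its difference was 0.0086 (adjusted p = 0.983). NQO1, a quinone reductase, was at -0.23 and UGT1A6, a glucuronidating enzyme, at 0.22. Both moved with 1 control library: NQO1 was at -0.06 without replicate 3 and UGT1A6 at 0.0057 without replicate 5.

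**Figure D3:**
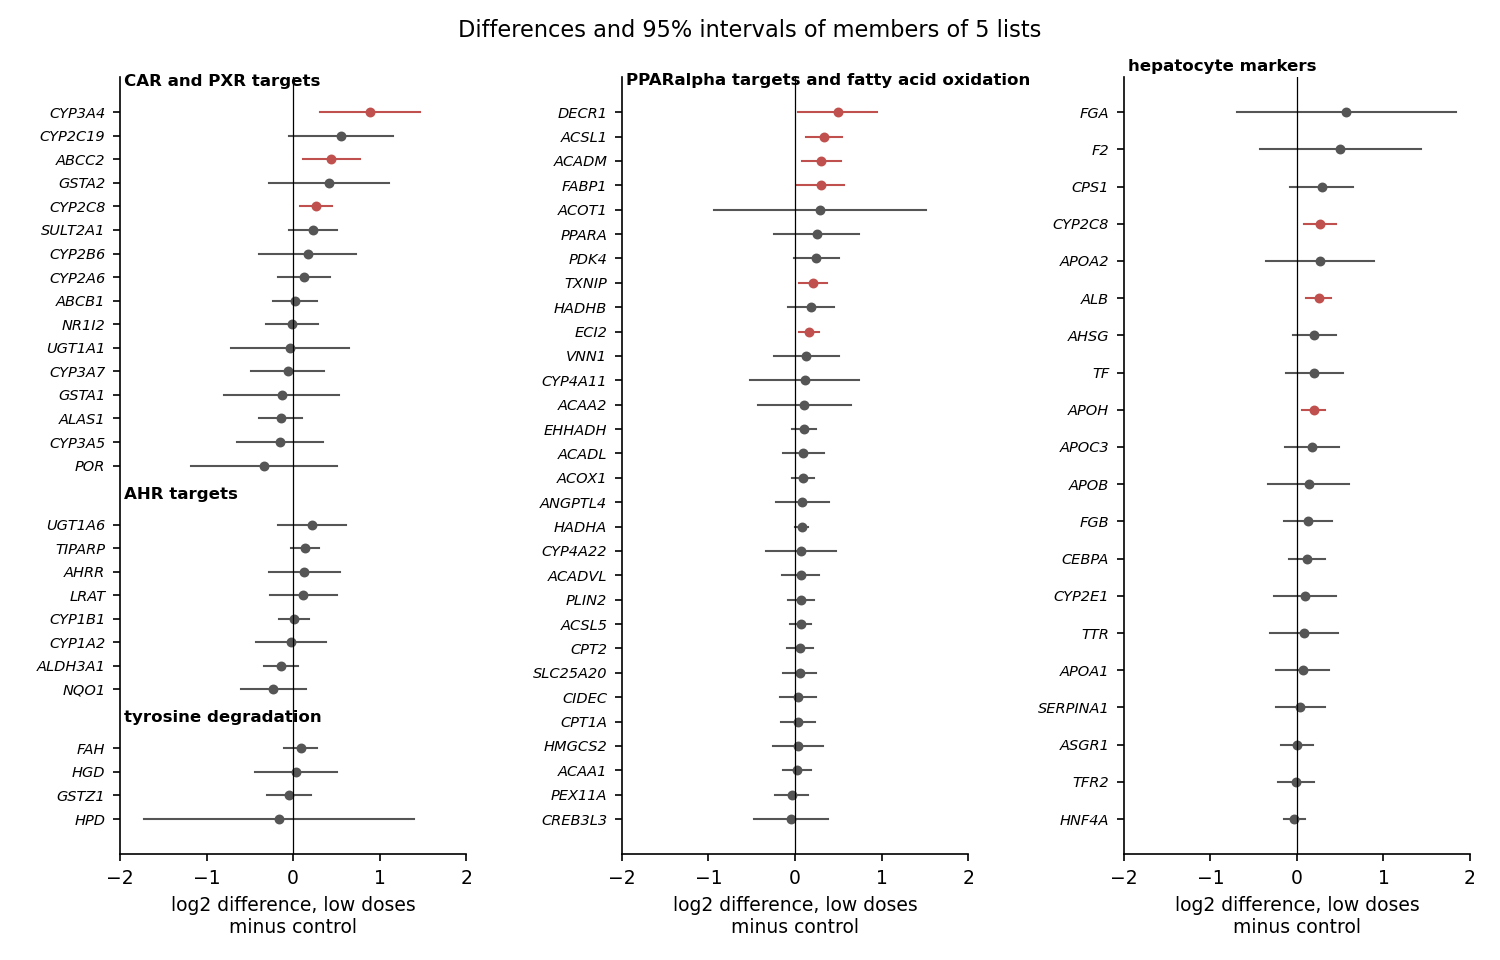
Log2 difference in FPKM + 1, isoxaflutole low doses minus control, for tested members of gene lists named in the text, with its 95% interval from limma. Points to the right of 0 are higher in the low-dose libraries. CYP3A4 has the largest difference of the PXR and CAR list, at 0.89.

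No tested enzyme of tyrosine degradation, the route that holds HPD, differed from control past the threshold. TAT did not pass the filter. Of the 4 enzymes that did, 0 reached an unadjusted p under 0.05 (limma), 2 lay above 0 and 2 below, and the median log2 difference was -0.0066. By its named transcripts HPD had 20.2, 24.1, 1.62, 25.8 and 25.6 FPKM at 10 uM, 9.59, 1.07, 30.8, 29.9 and 17.8 FPKM at 0.1 uM, and 27.2, 20.7, 22.1, 1.83 and 26.8 FPKM in control. Each group held 1 library at 1.07 to 1.83 FPKM. Once the unnamed transcripts of the same locus were added, these gaps closed, and the HPD locus stood at 20.3 to 25.9 FPKM at 10 uM, 20.3 to 31.3 FPKM at 0.1 uM, and 22.1 to 27.6 FPKM in control. The log2 difference was -0.16 (SE 0.733, adjusted p = 0.965) on named transcripts and 0.03 on the whole locus. FAH, the last enzyme of the route, had 44.9 to 49.7 FPKM at 10 uM, 41.1 to 63.5 FPKM at 0.1 uM, and 42.5 to 56.9 FPKM in control (log2 difference 0.09, adjusted p = 0.819). HGD, which opens the ring of homogentisate, was at 0.03 and GSTZ1, which isomerizes the product, at -0.05.

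**Figure D4:**
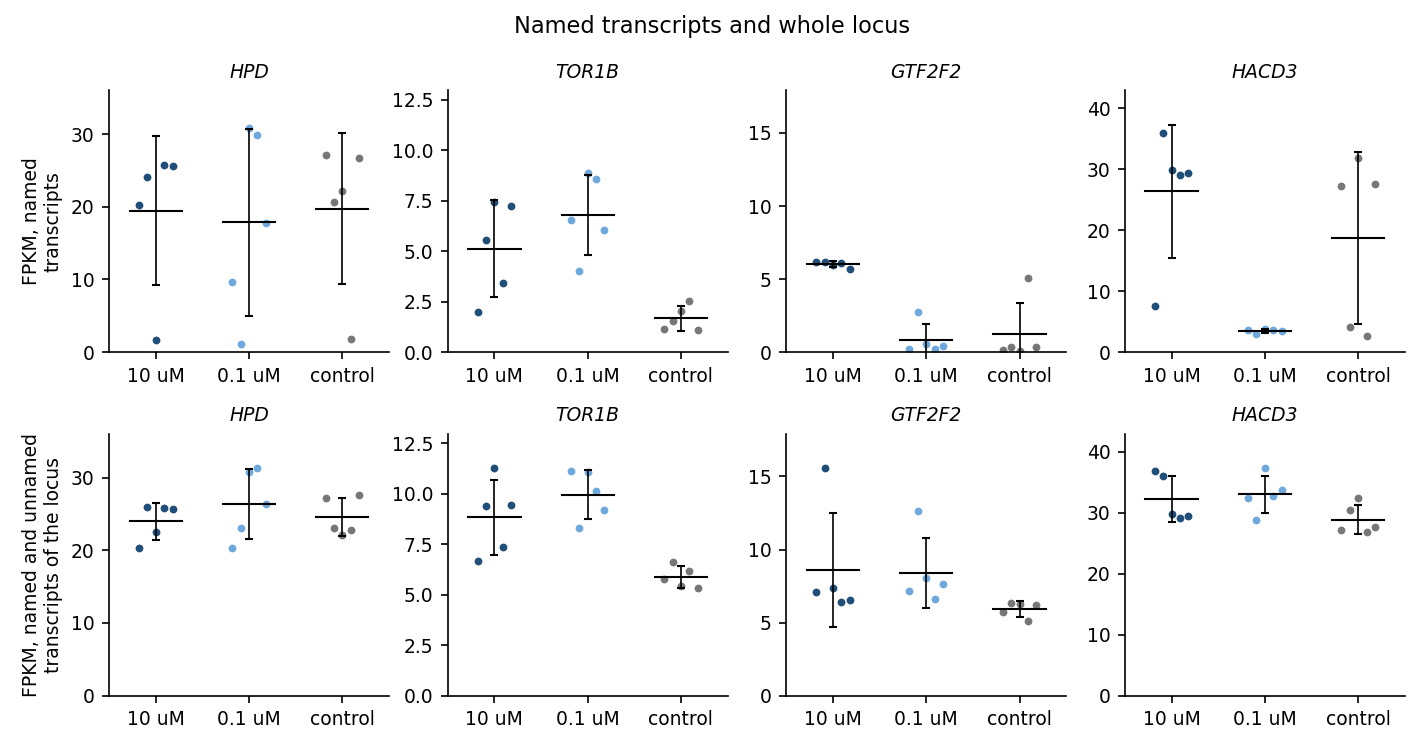
FPKM summed over named transcripts and over the whole locus, which adds unnamed transcripts, in each library of isoxaflutole 10 uM, isoxaflutole 0.1 uM and control, with a line at the group mean and a bar of 1 SD. HPD, at 1.07 to 1.83 FPKM in 3 libraries by named transcripts, is at 20.3 to 31.3 FPKM in every library by the whole locus.

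Several large differences had this form. GTF2F2, a subunit of the general transcription factor TFIIF, had 5.71 to 6.19 FPKM at 10 uM, 0.188 to 2.74 FPKM at 0.1 uM, and 0.0907 to 5.10 FPKM in control by named transcripts. The 10 uM minus 0.1 uM difference of GTF2F2 was 2.09 by named transcripts (adjusted p = 1.0) and -0.02 by the whole locus. HACD3, an enzyme of very long chain fatty acid synthesis, had 7.57 to 36.01 FPKM at 10 uM, 2.94 to 3.85 FPKM at 0.1 uM, and 2.63 to 31.8 FPKM in control, with a difference between the concentrations of 2.45 by named transcripts and -0.04 by the whole locus. LRBA, a protein of vesicle trafficking, had 1.99 to 4.96 FPKM at 10 uM, 1.48 to 7.09 FPKM at 0.1 uM, and 3.06 to 16.1 FPKM in control. Its pooled difference was -1.14 by named transcripts and -0.12 by the whole locus. TOR1B, a torsin ATPase of the endoplasmic reticulum, had another form. By named transcripts it had 1.98 to 7.43 FPKM at 10 uM, 4.03 to 8.86 FPKM at 0.1 uM, and 1.10 to 2.54 FPKM in control. By the whole locus the groups did not overlap, at 6.658 to 11.27 FPKM in the low-dose libraries and 5.355 to 6.639 FPKM in control. The TOR1B differences were 1.33 by named transcripts (SE 0.252, adjusted p = 0.476, limma) and 0.58 by the whole locus. Among the other genes named, the whole-locus difference was smaller by over 1.5 times for HTATSF1, COL4A3BP, ACSL1, ELK4, C6, ABCC2, DECR1, CDK1, MCM5, HSPB1, ATG4D, DNAJB2 and LSM14A, whereas it was the same as the named one for NRIP1, UGT2B7, CYP3A4 and CYP2C8.

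MT-CO3, a mitochondrially encoded subunit of cytochrome c oxidase, had the lowest log2 difference of all genes tested, at -5.89 (SE 1.46, adjusted p = 0.542). It was listed at 1.07, 0.924, 11.3, 13.7 and 1167 FPKM at 10 uM, at 9.39, 1646, 2.88, 13.6 and 4.50 FPKM at 0.1 uM, and at 1027, 1211, 1091, 947 and 1199 FPKM in control. Of the 10 low-dose libraries, 8 were listed far below every control library, 1 lay inside the control range and 1 above it. Low listings occurred in other groups as well: at 1 mM 3 of 5 libraries were at 14.2 to 19.3 FPKM, and 3 of the 10 low-dose mesotrione libraries were at 2.85 to 13.2 FPKM. Genes with mitochondrial names together held 0.178% to 0.678% of summed FPKM in the low-dose libraries and 0.409% to 0.546% in control. The medians were 0.5245% and 0.504%. Replicates 1 and 2 at 10 uM, which had the lowest MT-CO3 values, were at 0.678% and 0.632%. The cause of the low MT-CO3 listings was not tested. Of 13 listed mitochondrial genes only 4 passed the filter. U2AF1L5, the near-identical copy of the splicing factor gene U2AF1, was at -0.27 while U2AF1 was at 0.28, and how reads were divided between the copies is uncertain.

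Hepatocyte markers and lipid genes sat slightly above control. Of the 21 hepatocyte markers tested, 19 lay above 0, 3 were higher at an unadjusted p under 0.05 and none lower. Over all genes 53.4% lay above 0, and 5.64% were higher and 2.03% lower at that p. CYP2C8 is counted among these 3 markers and also among the targets of PXR and CAR. The median log2 difference of the markers was 0.17, beside 0.01 over all genes. ALB had 11060, 11480, 10950, 10110 and 10810 FPKM at 10 uM, 10930, 10330, 12170, 10910 and 13300 FPKM at 0.1 uM, and 9286, 9681, 10320, 9597 and 8217 FPKM in control. Only 1 library, at 10 uM, lay below the highest control library, and the log2 difference was 0.25 (SE 0.0692, adjusted p = 0.547). APOH, a plasma glycoprotein that binds phospholipids, had 457 to 548 FPKM at 10 uM, 467 to 545 FPKM at 0.1 uM, and 389 to 478 FPKM in control (log2 difference 0.19, adjusted p = 0.595). The summed FPKM of the hepatocyte markers was 23150 to 25100 at 10 uM, 25280 to 28110 at 0.1 uM, and 20740 to 25340 in control. The biliary markers, at 588 to 683, 646 to 696 and 636 to 727 summed FPKM in the same groups, had 3 members above 0 and 3 below. Whether the makeup of the cultures had a part in the hepatocyte values was not tested.

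Of 32 genes of PPARalpha and fatty acid oxidation, 30 passed the filter, 28 lay above 0, 6 were higher at an unadjusted p under 0.05 and none lower. Over all genes 53.4% lay above 0 and 5.64% were higher at that p. The median log2 difference of the list was 0.09. Beside ACSL1, the 6 were ACADM (0.30) and DECR1 (0.49, but 0.22 without control replicate 1), enzymes of mitochondrial beta-oxidation, ECI2 (0.16), an enoyl-CoA isomerase, the fatty acid binding protein FABP1 (0.29) and TXNIP (0.21), an inhibitor of thioredoxin. FABP1 had 55.3, 80.95, 68.1, 86.1 and 64.9 FPKM at 10 uM, 60.9, 101, 87.9, 100.0 and 72.9 FPKM at 0.1 uM, and 61.2, 56.9, 66.9, 65.8 and 60.1 FPKM in control. The low-dose libraries reached higher but overlapped control, and the adjusted p was 0.640. The direct PPARalpha targets ANGPTL4 (0.09), PLIN2 (0.06) and PDK4 (0.25) had adjusted p of 0.659 or above.

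Among genes of bile acid handling, 9 of 16 passed the filter, 8 lay above 0 and 2 were higher at an unadjusted p under 0.05, with a median of 0.12. The shares over all genes were 53.4% above 0, and 5.64% higher and 2.03% lower at that p. SLCO1B1, the sinusoidal carrier that takes up bile acids and statins, had 9.48, 8.18, 5.41, 4.68 and 4.79 FPKM at 10 uM, 7.62, 5.16, 8.92, 6.77 and 7.16 FPKM at 0.1 uM, and 3.13, 3.74, 5.80, 4.16 and 5.6 FPKM in control. The groups overlapped, and the log2 difference was 0.50 (SE 0.168, adjusted p = 0.607). CYP7A1, the rate-limiting enzyme of bile acid synthesis, had 0.877 to 1.94 FPKM at 10 uM, 1.16 to 2.71 FPKM at 0.1 uM, and 0.841 to 1.10 FPKM in control (log2 difference 0.36, adjusted p = 0.618). The medians were 0.06 for 21 genes of cholesterol synthesis and 0.08 for 16 of fatty acid and triglyceride synthesis, with 3 higher and 0 lower genes each at an unadjusted p under 0.05.

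Stress and growth lists are set against the shares over all genes, 5.64% higher and 2.03% lower at an unadjusted p under 0.05. Of 12 heat shock genes, 3 were lower at an unadjusted p under 0.05, namely HSPB1, the co-chaperone BAG3 (-0.21) and DNAJB1 (-0.10), and 1 was higher, the mitochondrial chaperonin HSPD1 (0.17). Of 23 genes that answer unfolded proteins or other stress on translation 4 were higher and 0 lower, with a median of 0.05, and of 20 NRF2 targets 1 was higher and 0 lower, with a median of -0.03. Among 21 cell cycle genes 4 were higher and 0 lower: TOP2A (0.31), CCNA2 (0.27), CDK1 (0.82) and MCM5 (0.43). With whole loci CDK1 was at 0.21 and MCM5 at -0.05. The 10 chemokines and NF-kB targets that passed the filter all lay below 0, with a median of -0.14 and 0 at an unadjusted p under 0.05 (limma), and 12 of 17 interferon-stimulated genes lay below 0 with a median of -0.08. Over all genes 53.4% lay above 0, and the median was 0.01.

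Taken separately, each concentration gave 0 genes (0.0%) past the adjusted threshold in limma. At 10 uM against control 513 genes (3.75%) were higher and 261 (1.91%) lower at an unadjusted p under 0.05, and at 0.1 uM against control 616 (4.51%) were higher and 263 (1.92%) lower. These comparisons share the control libraries. The genes nearest the threshold at 10 uM were UBE2A, GTF2F2 and NRIP1 on the higher side and U2AF1L5, RPL17-C18orf32 and SHARPIN on the lower side. At 0.1 uM they were TOR1B, UGT2B7 and TMEM62 on the higher side and EHD1, LSM14A and LTBP4 on the lower side. The hepatocyte markers had a median of 0.09 at 10 uM and 0.25 at 0.1 uM, and the PXR and CAR targets had 0.04 at 10 uM and 0.18 at 0.1 uM.

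Set directly against each other, 10 uM and 0.1 uM differed in 0 of 13673 genes (0.0%) in limma, with 200 (1.46%) higher and 227 (1.66%) lower at 10 uM at an unadjusted p under 0.05. The 95% interval lay between -1 and 1 for 12241 genes (89.5%), and its median reach was 0.315 to either side, so smaller differences between the concentrations were not resolved. RPL17-C18orf32, a readthrough of a ribosomal protein gene with its neighbour, was listed at 0, 0, 0, 0 and 1.51 FPKM at 10 uM, at 0, 34.9, 28.1, 28.3 and 57.7 FPKM at 0.1 uM, and at 29.6, 29.6, 6.50, 22.7 and 3.24 FPKM in control. It shares sequence with RPL17, so its reads are uncertain. Among the lead genes, UBE2A was at 19.3 to 22.5 FPKM at 10 uM and 18.7 to 21.3 FPKM at 0.1 uM. UGT2B7 was at 8.09 to 11.06 FPKM at 10 uM and 9.80 to 15.85 FPKM at 0.1 uM. Neither gene passed the adjusted threshold between the concentrations.

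ANGPTL4, PLIN2, VSIG1 and COL3A1 stand far from control at 1 mM but had medians near control at the low concentrations, unlike CYP3A4. CYP3A4 had a median of 2.70 FPKM in control, 7.79 at 0.1 uM, 4.50 at 10 uM and 180 at 1 mM, where the 5 libraries ran from 80.3 to 274 FPKM. ANGPTL4, a lipoprotein lipase inhibitor, had medians of 2.54, 2.11, 2.75 and 21.6 FPKM over control, 0.1 uM, 10 uM and 1 mM. PLIN2, a coat protein of lipid droplets, had 33.7, 33.1, 35.03 and 79.4 FPKM in the same order. Below 1 mM the highest values were 4.10 FPKM for ANGPTL4 and 42.2 FPKM for PLIN2, both at 0.1 uM, against 3.04 and 36.4 FPKM in control. Of genes that are lower at 1 mM, AHSG, the plasma protein fetuin-A, had medians of 62.9, 90.8, 69.5 and 7.56 FPKM over the same concentrations. VSIG1, a junctional adhesion protein, had 10.2, 10.2, 9.03 and 0.996 FPKM, and COL3A1, a fibrillar collagen, had 19.0, 17.6, 17.1 and 3.39 FPKM. ALB, C6 and UGT2B7 lay above control on average at the low concentrations and below it at 1 mM, where their mean log2 values differed from control by -0.77, -0.83 and -0.42. These differences at 1 mM are given as descriptions, since that comparison was not tested here.

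**Figure D5:**
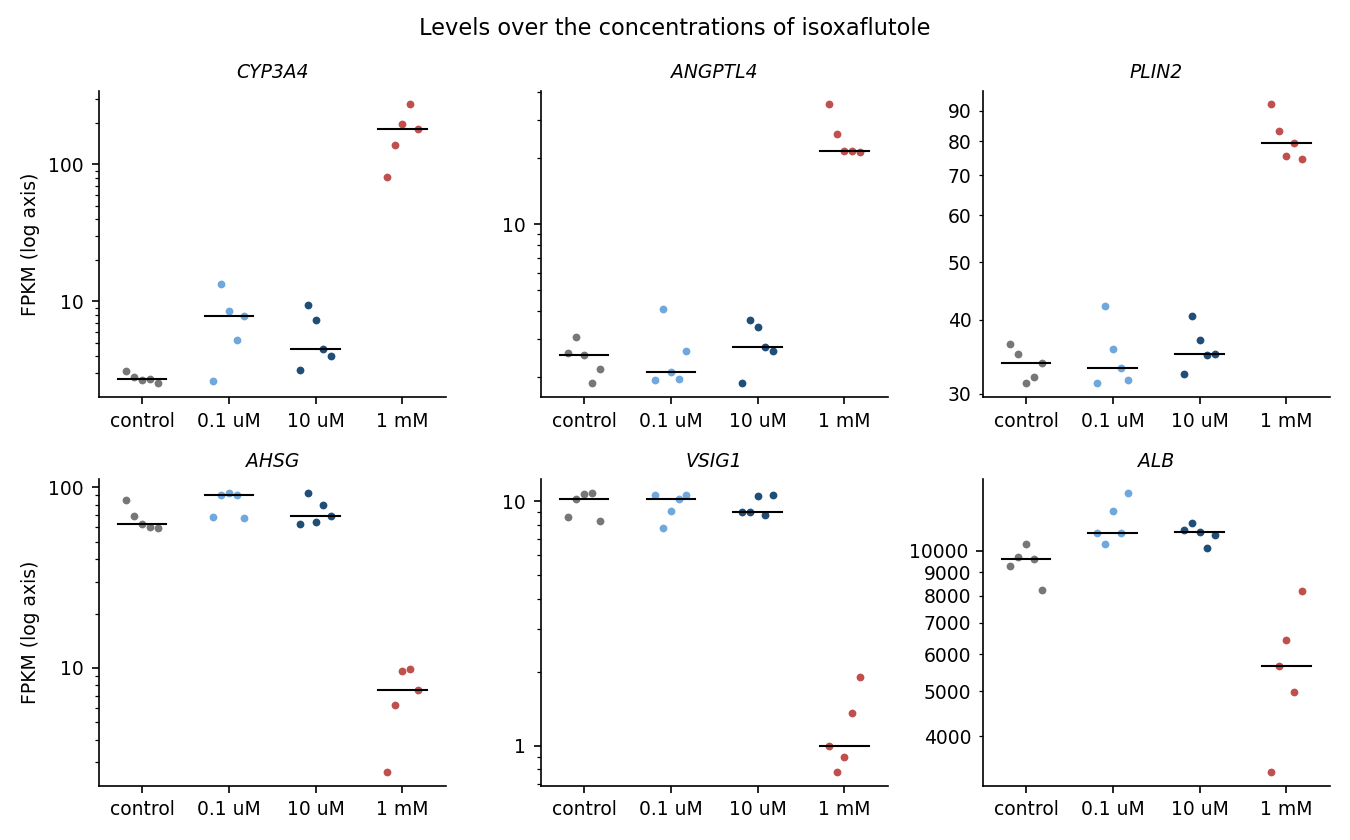
FPKM on a log axis in each library of control, isoxaflutole 0.1 uM, 10 uM and 1 mM, with a line at the group median. CYP3A4 has a median of 180 FPKM at 1 mM and 2.70 FPKM in control, with the low concentrations between them. ANGPTL4, PLIN2 and VSIG1 have medians near control at 0.1 uM and 10 uM. ALB is above control on average at both, and AHSG has a median of 90.8 FPKM at 0.1 uM against 62.9 FPKM in control.

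Mesotrione was tested at the same concentrations, which allows a comparison of the pooled low doses. At 10 uM and 0.1 uM together, isoxaflutole and mesotrione differed in 1 of 14015 genes (0.00714%). At an unadjusted p under 0.05, 773 genes (5.52%) were higher with isoxaflutole and 264 (1.88%) lower, but after median-ratio scaling of the libraries the split was 532 higher and 429 lower. The gene that passed was CDK1, the kinase that drives entry into mitosis, with 3.47, 1.54, 2.18, 2.47 and 3.10 FPKM at 10 uM isoxaflutole, 2.80, 5.86, 2.69, 4.04 and 3.06 FPKM at 0.1 uM isoxaflutole, and 0.636 to 2.37 FPKM in the 10 mesotrione libraries. CDK1 was higher by 0.97 on the log2 scale (SE 0.153, adjusted p = 0.0423). In control it had 0.275 to 6.04 FPKM, a range wider than that of either compound. With the whole locus the difference was 0.27 (adjusted p = 0.583), and leaving out 1 library kept the call in 6 of 20 cases.

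CYP3A4 overlapped between the compounds. CYP3A4 had 6.30, 5.85, 2.91, 2.71 and 11.2 FPKM at 10 uM mesotrione and 1.38, 3.32, 3.95, 3.40 and 3.02 FPKM at 0.1 uM mesotrione, overlapping the isoxaflutole libraries. Control was at 2.53 to 3.10 FPKM, with mesotrione libraries above, within and below that range. The log2 difference of isoxaflutole against mesotrione was 0.51 (SE 0.272, 95% interval -0.06 to 1.07, adjusted p = 0.686). For HPD the difference by named transcripts had an interval from -1.74 to 0.11. After CDK1 the genes nearest the threshold were SERPINC1 (antithrombin, 0.31), GNPDA1 (a glucosamine-6-phosphate deaminase, 0.28) and CMC2 (0.84) on the higher side and TBC1D4 (-1.52), PPP2R1A (-0.19) and RGL2 (-0.55) on the lower side, with adjusted p of 0.384 or above. With whole loci TBC1D4 was at -0.30 and GNPDA1 at 0.06. SERPINC1 had 30.6 to 41.6 FPKM at 10 uM isoxaflutole, 34.8 to 45.7 FPKM at 0.1 uM isoxaflutole, and 26.9 to 33.96 FPKM in the mesotrione libraries. The list medians of this comparison were 0.09 for hepatocyte markers, 0.17 for targets of PXR and CAR and 0.04 for PPARalpha targets, beside 0.02 over all genes.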

How the data were processed

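Total RNA of HepaRG cells was sequenced with a stranded kit that depletes ribosomal RNA, in 75 bp paired reads, in 3 pools of 17, 17 and 16 randomized libraries, per the labels' protocols. The sources used here do not place libraries in pools. The authors deposited FPKM per transcript. StringTie, HISAT, HISAT2 and GRCh38 are named, without versions or roles, per the submitters' processing notes. In 20 of the columns the deposited FPKM values include 24 slightly below 0, which were set to 0. All columns were matched to samples by name, and 0 columns were left unused. The members, gene lists and tests were chosen with earlier results of these data known.

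FPKM was summed per gene name over 199173 named of 239290 transcripts, and 40117 unnamed transcripts entered only the whole-locus alternative. A gene was kept if 5 or more of the 15 libraries had 1 FPKM or more (in the mesotrione comparison, of its 20 libraries). Values on the log2(FPKM + 1) scale, which understates changes of low genes, were fitted with limma 3.58.1 in R 4.3.3 (trend and robust variance, 2 means for the pooled comparisons, and 1 mean for each of the 3 groups where the concentrations were set apart), with Benjamini-Hochberg adjustment over all genes tested and a threshold of 0.05. The test was checked on simulated data with genes and libraries drawn independently, so that check says nothing about sample-number runs or unnamed transcripts. Tables were made in Python 3.11.15. Depth was estimated from the steps between the FPKM values of 11640 transcripts of 300 to 1500 bases. The genes named were, in each direction, the 12 nearest the threshold in the pooled comparison and the 3 nearest in each other comparison with a mean of at least 5 FPKM in the higher group, members of the lists, and genes of the 1 mM response. Genes without overlap, genes whose named and whole-locus values part, and genes cited beside them were chosen after their values were seen. Settings varied were the pseudocount (0.1), the filter (none), scaling by median ratios, the sample-number runs as a block, the number of means, a fit over all 50 libraries, whole loci and leaving out each library, and 2 more, a fit over 49 libraries and leaving out the first run of sample numbers, were added after seeing the data. Replicate numbers follow accession order. Some gene names in the table were turned into dates (25 names) and were not used by name. A gene of the lists is counted in them but not reported here by name.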

Additional observations from a re-analysis of the deposited data

Results flagged for a closer look

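In groups of 5 libraries, 1 library stood apart from the other 4 in 24 of 126 groups, for 16 of 40 genes looked at. Chance alone does this in about 1 group in 20, and these genes were picked with their values known. The genes with named and unnamed transcripts account for many: HPD was at 1.62 FPKM in replicate 3 at 10 uM and 1.83 FPKM in control replicate 4, below their groups. GTF2F2 was at 2.74 FPKM in replicate 2 at 0.1 uM and 5.10 FPKM in control replicate 4, above theirs. HACD3 was at 7.57 FPKM in replicate 1 at 10 uM, below the others. TBC1D4 was at 11.6 FPKM in replicate 3 at 10 uM and 12.6 FPKM in replicate 1 at 0.1 uM, above theirs. RPL17-C18orf32 was at 1.51 FPKM in replicate 5 at 10 uM, where the other 4 were listed at 0. MT-CO3 was at 1167 FPKM in replicate 5 at 10 uM and 1646 FPKM in replicate 2 at 0.1 uM, above theirs.

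The acute phase genes stood apart in 1 library of each of the 3 groups compared. CRP was at 66.3 FPKM in replicate 1 at 10 uM, 114.7 FPKM in replicate 1 at 0.1 uM and 82.5 FPKM in control replicate 5. HP was at 2926, 3218 and 3774 FPKM in the same 3 libraries, which hold the first run of sample numbers.

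Replicate 2 at 10 uM was above its group for HTATSF1 (16.3 FPKM), APOH (548.2 FPKM) and METTL7A (61.2 FPKM). At 10 uM, ACSL1 was highest in replicate 5 (43.2 FPKM) and CYP1B1 in replicate 1 (9.67 FPKM). In control replicate 4, RPL22 was low (38.5 FPKM) and HSPB1 high (458.4 FPKM). CDK1 was at 2.37 FPKM in replicate 5 of mesotrione at 10 uM, above its group.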

How the results depend on the processing

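The count of 0 in the pooled comparison held under a pseudocount of 0.1, no filter, scaling, the run block, 1 mean for each of the 3 groups, the fits over 50 and 49 libraries and leaving out the first run, and was 1 with whole loci (RAB26). Leaving out 1 library gave 0 to 1 (TOR1B without replicate 1 at 10 uM, adjusted p = 0.0433). At 10 uM against control the count was 1 without the first run (RPL17-C18orf32) and 0 to 1 leaving out 1 library (GTF2F2 without control replicate 4). At 0.1 uM it was 0 throughout. Between the concentrations it was 1 without the first run and 0 to 1 leaving out 1 library (RPL17-C18orf32 without replicate 1 at 0.1 uM, GTF2F2 without control replicate 4). Against mesotrione it was 0 without the filter, with scaling, the block, 50 libraries, whole loci, 49 libraries or without the first run, and 0 to 2 leaving out 1 library, with 2 (CDK1 and TBC1D4) without replicate 1 at 0.1 uM or replicate 3 at 10 uM. Higher and lower genes at an unadjusted p under 0.05 in the pooled comparison numbered 771 and 278, but 141 and 80 over 50 libraries and 929 and 1152 without the filter. Over 50 libraries they were 117 and 73 at 10 uM, 109 and 106 at 0.1 uM, 85 and 54 between the concentrations and 156 and 97 against mesotrione.

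With the runs of sample numbers as a replicate block, the pooled comparison had 0 calls (lowest adjusted p 0.459). Residuals of the 15 same-run pairs correlated at -0.06 to 0.20, above 0.1 for 2, beside -0.18 to 0.19 for 60 pairs from other runs. By these residuals 6 of 15 libraries matched their own run best. The main fits did not take the numbers as pairs, although the first-run libraries stood apart for CRP and HP. Whether the runs are batches was not tested.

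Of 112 gene results, 16 changed sign under some setting. With whole loci, the 10 uM minus 0.1 uM difference was -0.016 for GTF2F2, -0.036 for HACD3 and 0.43 for RAN, and the pooled one 0.057 for CYP3A5, 0.17 for HACD3, -0.093 for HGD, 0.028 for HPD, -0.050 for MCM5 and 0.0018 for VSIG1. Without the first run it was 0.011 for CREB3L3, -0.014 for CYP1B1, 0.063 for HACD3, -0.059 for HGD and 0.021 for HPD, and with scaling -0.0063 for CYP1B1. Leaving out 1 library gave ranges across 0 for COL3A1 (-0.066 to 0.080), CREB3L3 (-0.19 to 0.16), CYP1A2 (-0.13 to 0.080), CYP1B1 (-0.030 to 0.040), CYP2B6 (-0.10 to 0.36), CYP3A5 (-0.23 to 0.0016), GSTZ1 (-0.14 to 0.0078), HGD (-0.18 to 0.14), HPD (-0.79 to 0.15), UGT1A1 (-0.21 to 0.12) and VSIG1 (-0.064 to 0.021). Apart from whole loci, which change the transcripts summed, the cause was not tested. Fragments per library were estimated, not counted, and limit low genes most.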

Other observations

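Genes of secreted acute phase proteins of the liver were high in 1 library of the control group and of each low-dose group of both compounds. At 1 mM isoxaflutole CRP was at 1.81 to 3.07 FPKM, with no such library. HP at 1 mM was at 495 FPKM in the first-run library and 233.3 to 418.7 FPKM in the others. SAA1, a serum amyloid protein, was at 67.2 FPKM in the first-run library at 10 uM isoxaflutole, against 13.7 to 16.5 FPKM in the other 4, and at 65.99 FPKM at 0.1 uM, against 17.4 to 19.6 FPKM. In control it was at 139.8 FPKM, against 10.4 to 22.9 FPKM. Its neighbour SAA2 was at 51.4, 58.7 and 111.3 FPKM in these 3 libraries. In the first-run mesotrione libraries CRP was at 70.6 FPKM at 10 uM and 71.5 FPKM at 0.1 uM, against 5.90 to 18.3 FPKM in the other 8. Since each of the 3 groups compared holds 1 such library, the pooled log2 differences were small: 0.08 for CRP, 0.10 for HP, -0.15 for SAA1 and -0.17 for SAA2, with adjusted p from 0.954 to 0.977 (limma).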
